A study of Homo sapiens with 9 samples.

Results

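The genes described here were 10 members of, or readouts of, the BMP and activin branches of the TGF-β family in human HEK293 cells: the ligand genes GDF15, BMP2, BMP4, BMP7, INHBA and INHBE, the antagonist gene CHRDL1, and the target genes SMAD7, ID1 and ID3. They were chosen by name, as the non-control probes to which the scanner files gave one of these 10 symbols, which gave 13 probes of the 50598 on the array and 10 of 36618 gene names. The members and the lists used below were chosen with earlier results of these data known. Their counts beside shares of all genes are therefore a description and not a test. HEK293 is a human embryonic kidney cell line. The samples were 3 HEK293 lines stably expressing HA-tagged MEK1, the kinase that phosphorylates ERK: wild-type MEK1 (WT cells), MEK1 with the F53S substitution found in RASopathies, congenital disorders of RAS and ERK signaling (F53S cells), and MEK1 with the K57N substitution found in cancers (K57N cells). Total RNA of each line was hybridized on 3 arrays in steady state, and the question was how the mutants differ from WT and from each other in gene expression. All 3 lines went through the same plasmid transfection and puromycin selection, kept their own MEK1 gene, and were represented by 1 stable line each, so that a difference between lines cannot be told apart from a difference between those particular transfectants.

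BMPs and activins are secreted dimers that bind paired type I and type II receptor kinases. BMP2, BMP4 and BMP7 act mainly through SMAD1, SMAD5 and SMAD9, and activin A, a dimer of the βA subunit encoded by INHBA, acts through SMAD2 and SMAD3; both groups share SMAD4. Chordin-like 1, the product of CHRDL1, binds BMPs outside the cell and keeps them from their receptors, and SMAD7 is an inhibitory SMAD that dampens receptor signaling. ID1 and ID3, helix-loop-helix proteins that lack a DNA-binding domain, are among the most direct transcriptional targets of BMP signaling. GDF15 is a distant family member known as a stress-induced hormone that acts through GFRAL, a receptor of the hindbrain.

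Each value below is the log2 signal of a probe relative to the 75th percentile of its own array, so that 1 unit is a 2-fold change and levels of different probes cannot be set against each other. A gene was called where limma gave a Benjamini-Hochberg adjusted p below 0.05, taken over all 25397 probes tested (27883 on slide 2 alone), and a change of more than 2-fold. Replicate 1 of every line was hybridized on one slide (slide 1) and replicates 2 and 3 on another (slide 2). The 75th percentile of signal was 245 to 376 on the 3 arrays of slide 1 and 695 to 821 on the 6 arrays of slide 2, and 23711 to 29319 probes per array were well above background. Because each slide held all 3 lines, slide was also fitted as a block, and its values are given where they changed a call and for some other members. No spot of the 13 probes was saturated. The MAP2K1 probe, for the gene that encodes MEK1, read 2.37 ± 0.04 in WT cells, 2.45 ± 0.06 in F53S cells and 2.85 ± 0.06 in K57N cells (SD, n = 3), a difference of 0.48 between K57N and WT cells (limma adjusted p = 0.135, and 0.00758 with slide as a block), and whether it also detects the transgene is not known. Of 6 genes known from HEK293 cells, 5 (PAX2, NEFL, VIM, KRT8 and KRT18) had a probe well above background on all 9 arrays, and NEFM on 6 arrays. Of the markers of other cells, DCN was above background on 0 arrays and PECAM1 on at most 2, and PTPRC had 5 probes of which 1 was above background on all 9 arrays.

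The probes behind the genes with the largest differences are shown first, because the array reads each gene only at its probe. Each line gives bases 1 to 30 of the 60-base probe, 5′ to 3′ on the strand of the gene. They lie, on hg19, at chr19:18499890-18499919 on the plus strand (GDF15), chr20:6760810-6760839 on the plus strand (BMP2), chr7:41729276-41729305 on the minus strand (INHBA), chr14:54417348-54417377 on the minus strand (BMP4) and chrX:109917250-109917279 on the minus strand (CHRDL1). No gene model of that build was used here, so the exon or untranslated region they fall in is not stated.
GDF15: tattggggtgaccttcttggggactcgggg
BMP2: gcttttctttccaaggttgtgtgtttgaac
INHBA: aaacatcatcaaaaaggacattcagaacat
BMP4: ggacacgagactggtccaccacaatgtgac
CHRDL1: gaacaacaaagaccataagcatcatttagc

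Among the tested members, the antagonist gene CHRDL1 fell in K57N cells against both WT and F53S cells, while ID1, ID3 and SMAD7 were called in no comparison. The activin subunit gene INHBA was higher in K57N cells on slide 2, where its probe exceeded background clearly on every array, by 2.04 log2 units against WT (limma on slide 2 alone, adjusted p = 0.00364) and by 1.69 against F53S cells (adjusted p = 0.00808). Over 9 arrays that probe passed the filter only through K57N cells, the line in which it was high, so its call over 9 arrays is given as a description. GDF15 had the largest difference of all members, and was called in K57N cells with slide or replicate number as a block. The fit of 9 arrays without a block did not call it (K57N against WT, limma adjusted p = 0.0603), though some alternatives without a block did. Of the 10 genes, 9 could be tested. INHBE, the activin E subunit gene, was well above background on 1 of 9 arrays and was not tested. Without a block, K57N against WT gave 1 of 9 members called higher (1.51% of the 19209 genes tested on the array) and 1 called lower (0.739%), and K57N against F53S gave 1 higher (0.953%) and 1 lower (0.245%). The member called higher was INHBA in both, and it was not tested once probes had to exceed background on each of the 9 arrays. With slide as a block, 2 were called higher in K57N than WT (2.55%) and 1 lower (1.96%), and 2 higher (1.87%) and 1 lower (1.1%) in K57N than F53S; the added gene was GDF15 in both. F53S against WT gave 0 called members by limma without a block, with slide as a block and with replicate number as a block, against a background of 0% in each direction; at an unadjusted p below 0.05 the numbers were 0 without a block (0.89% of all genes tested), 2 with slide as a block (GDF15 and CHRDL1; 4.04%) and 1 by the methods' t-test (1.46%).

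**Figure D1:**
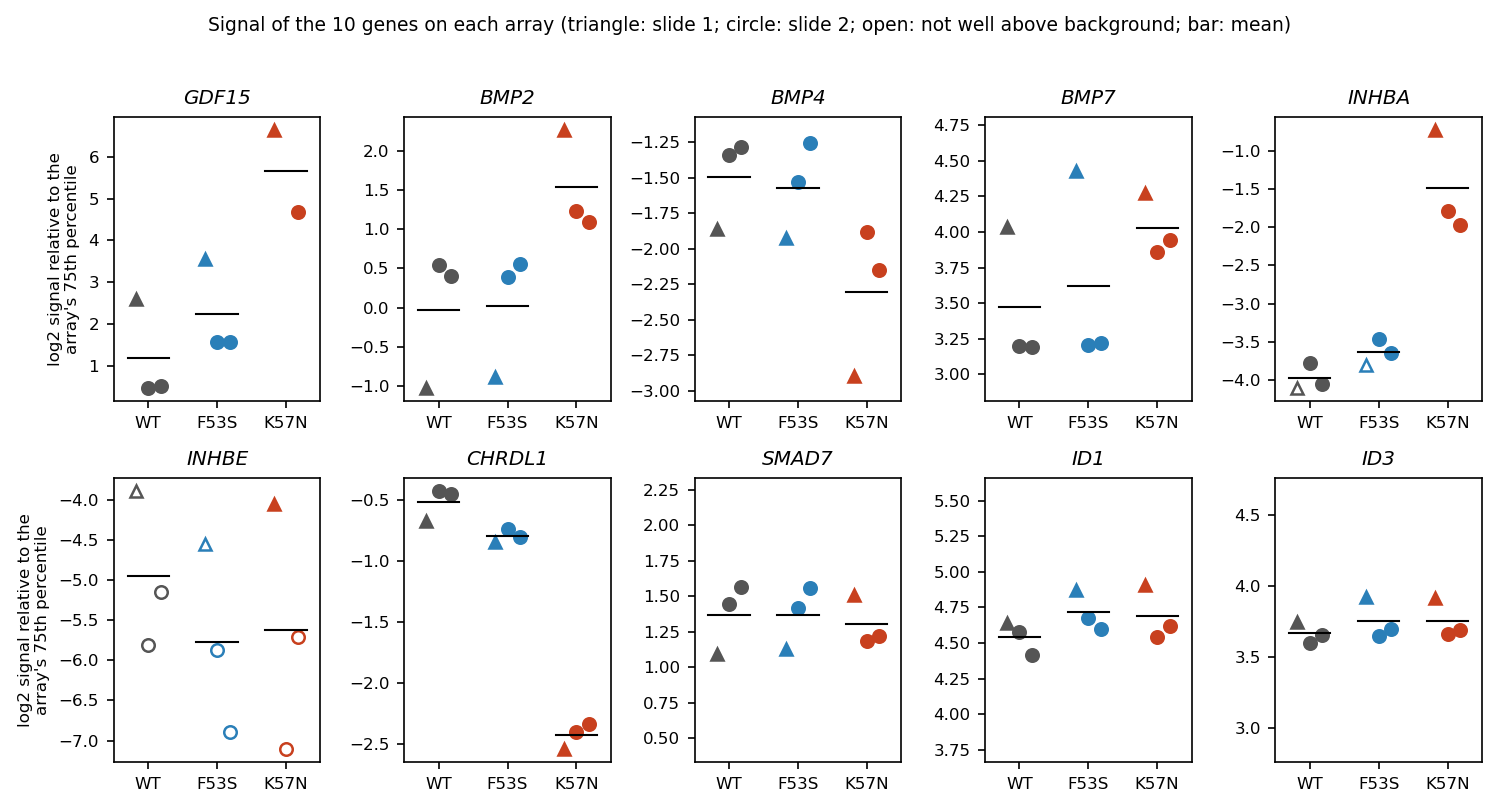
Log2 signal relative to the array's 75th percentile (y axis, a separate scale for each gene) of the 10 genes in WT, F53S and K57N cells (x axis), with triangles for the array on slide 1, circles for the 2 arrays on slide 2, open symbols for spots not well above background and bars for means. BMP7 and CHRDL1 are shown by the probe with the highest mean signal, GDF15 has 1 slide 2 array in K57N cells because the other spot was flagged, and CHRDL1 in K57N cells lies below every array of the other 2 lines.

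The ligand with the largest difference was GDF15. Its probe (A_23_P16523, 19:18499890-18499949 on hg19) read 2.61, 0.46 and 0.51 on replicates 1, 2 and 3 of WT cells. In F53S cells it read 3.55, 1.58 and 1.56. In K57N cells it read 6.65 on replicate 1 and 4.68 on replicate 3, and the spot on replicate 2 was flagged as an outlier and left out (3.93 if kept). On each slide the levels rose in the order WT, F53S and K57N, and slide 1 read higher than slide 2 in every line. K57N arrays did not overlap those of either other line, whereas F53S and WT arrays overlapped.

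GDF15 was 4.47 ± 0.94 (SE) log2 units higher in K57N than WT cells without a block, which is 22.2-fold with a 95% interval from 4.85-fold to 101-fold, and its adjusted p of 0.0603 (limma) did not pass. With slide as a block the difference was 4.13 ± 0.10, or 17.5-fold, with an adjusted p of 4.05e-06, and with replicate number as a block it was 4.12 with an adjusted p of 4.75e-05. Within slides it was 4.04 on slide 1 and 4.19 on slide 2, each from 1 array of K57N cells because the flagged spot was left out. That spot read 3.93, below the 4.68 of the other slide 2 array. The likeness of the 2 slides and the small SE with a block therefore rest in part on leaving it out, and no fit with a block was run with it kept. Against F53S cells the difference was 3.43 ± 0.94 without a block (limma adjusted p = 0.207), 3.09 ± 0.10 with slide as a block (adjusted p = 2.71e-05) and 3.09 with replicate number as a block (adjusted p = 0.000262). F53S cells read 1.04 ± 0.84 above WT cells (limma adjusted p = 1.0), and 1.04 ± 0.09 with slide as a block (adjusted p = 0.0822), which missed the threshold. The 3 same-numbered pairs of F53S and WT arrays differed by 0.94, 1.12 and 1.05. Leaving out 1 array at a time without a block moved the difference of K57N from WT between 3.48 and 5.46 (adjusted p from 0.0439 to 0.294), the lowest without replicate 1 and the highest without replicate 3 of K57N cells. Without a block, the call of K57N against WT was made when replicate 1 of WT cells (adjusted p = 0.0469) or of F53S cells (0.0439) was left out and under quantile normalization (0.0417), and with the flagged spot kept the difference was 3.89 (0.0651).

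INHBA encodes the βA subunit shared by activin A and inhibin A. Its probe (A_23_P122924, 7:41729246-41729305) read -4.11, -3.78 and -4.05 in WT cells and -3.80, -3.47 and -3.65 in F53S cells, where replicate 1 of each line was not well above background. In K57N cells it read -0.72, -1.79 and -1.96, well above background on all 3 arrays and above every array of the other lines. The mean over 9 arrays was 2.49 log2 units higher in K57N than WT cells and 2.15 higher than in F53S cells, with the dim spots at their measured values. With each dim spot set at the lowest signal well above background on its array, K57N cells were 5.31-fold higher than WT cells and 4.40-fold higher than F53S cells. That signal is not a strict upper limit for a dim spot, so these folds are estimates. F53S and WT cells differed by 0.34 ± 0.31, and their arrays overlapped. On slide 1 the difference from WT was 3.14 with the dim WT spot set in the same way, and on slide 2 it was 2.04 ± 0.14 (SE). Both calls over 9 arrays were lost with normexp background correction, under which the difference from WT was 1.29, and under the methods' t-test. The call against F53S cells was also lost (adjusted p of 0.0564 to 0.091) when any 1 array of F53S cells or replicate 2 of K57N cells was left out, and when only the 2 lines were fitted (0.0691) or dim probes were kept (0.101).

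BMP2 was the ligand whose difference depended most on the slide. Its probe (A_33_P3237150, 20:6760810-6760869) read -1.04, 0.54 and 0.41 in WT cells. It read -0.89, 0.39 and 0.56 in F53S cells. In K57N cells it read 2.27, 1.24 and 1.1, above all arrays of the other lines. K57N cells exceeded WT cells by 3.31 on slide 1 and 0.69 on slide 2, where the 2 pairs gave 0.70 and 0.69. Over all arrays it was 1.57 ± 0.55, and neither fit called BMP2 (limma adjusted p = 0.24 without and 0.0708 with the slide block). On slide 2 alone the adjusted p was 0.0177, with a change of 1.62-fold, below the 2-fold threshold. F53S and WT cells differed by 0.05 ± 0.55.

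BMP4, which like BMP2 signals through BMPR1A and SMAD1/5, moved the other way. Its probe (A_23_P54144, 14:54417318-54417377) read -1.86, -1.34 and -1.29 in WT cells. It read -1.93, -1.53 and -1.25 in F53S cells, close to WT on each slide. In K57N cells it read -2.89, -1.88 and -2.15, below every WT array but overlapping F53S cells. K57N minus WT was -0.81 ± 0.31 (limma adjusted p = 0.284) and, with slide as a block, -0.81 ± 0.13 (adjusted p = 0.00567), a change of 1.75-fold that stayed under the 2-fold threshold. It was -1.03 on slide 1 and -0.70 on slide 2.

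BMP7, a ligand known from kidney development, was read by 3 probes on chromosome 20 that did not agree in size. The probe with the highest signal (A_23_P68487, 20:55745555-55745614) read 4.04, 3.20 and 3.19 in WT cells, 4.43, 3.20 and 3.22 in F53S cells and 4.28, 3.86 and 3.95 in K57N cells. K57N cells lay above the other lines on slide 2 only. The difference of K57N from WT over all arrays was 0.55 ± 0.38 by that probe, 0.28 ± 0.18 by the probe at 20:55743791-55743844 and 0.49 ± 0.26 by the probe at 20:55803380-55803439. None was called. With slide as a block the adjusted p was 0.0529, 0.171 and 0.0143, all under 2-fold.

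INHBE, the remaining ligand gene, gave no usable level. Its probe (A_24_P141707, 12:57850864-57850923) was well above background on replicate 1 of K57N cells, at -4.05, and on no array of WT or F53S cells. The same slide read -3.89 in WT cells, where the spot was not well above background, so no fold is given.

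**Figure D2:**
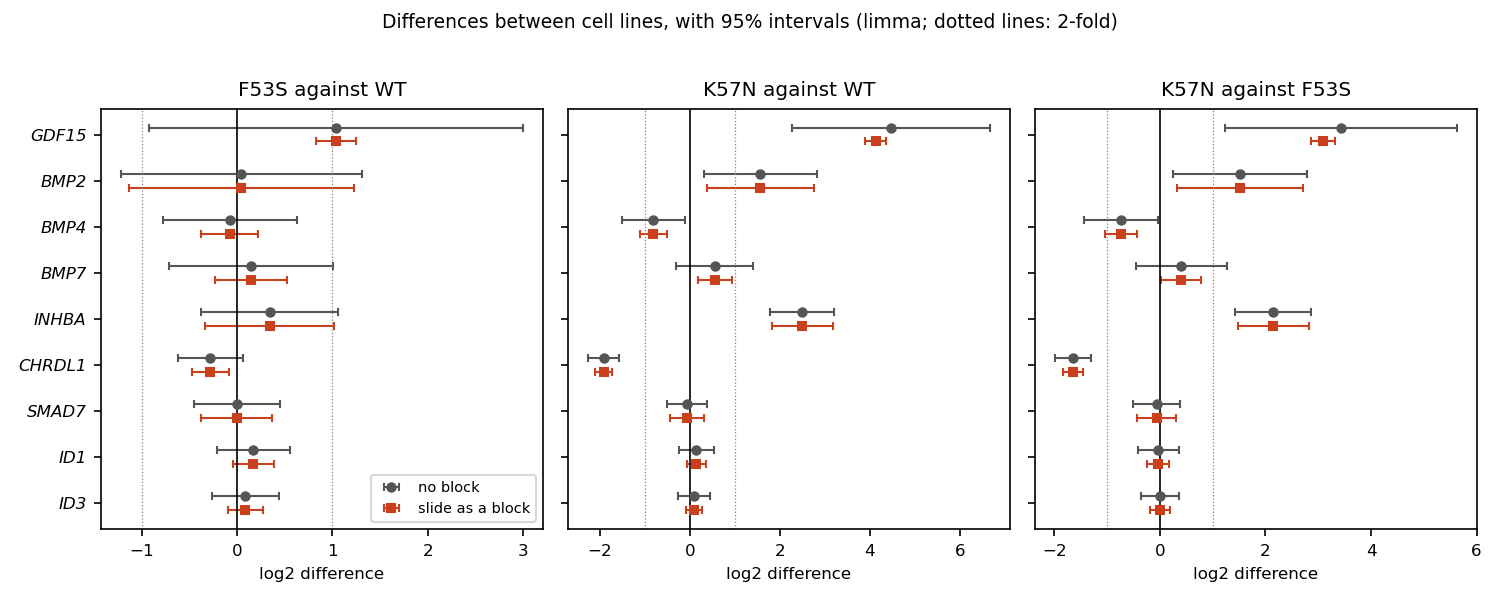
Log2 differences (x axis) of the 9 tested genes (y axis) for F53S against WT, K57N against WT and K57N against F53S, with 95% intervals from limma, without a block (grey circles) and with slide as a block (red squares). The GDF15 interval narrows from 2.28 to 6.66 without a block to 3.90 to 4.37 with slide as a block in K57N against WT, and the ID1, ID3 and SMAD7 intervals include 0 in every panel.

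CHRDL1, the BMP antagonist, was lower in K57N cells on both slides by its brighter probe. That probe (A_24_P168925, X:109917220-109917279) read -0.67, -0.42 and -0.44 in WT cells. It read -0.84, -0.74 and -0.80 in F53S cells, each below every WT array. In K57N cells it read -2.55, -2.41 and -2.34, so the 3 lines were separated without overlap. The difference of K57N from WT was -1.92 ± 0.15, which is 3.78-fold lower (limma adjusted p = 0.000544), with -1.88 on slide 1 and -1.94 on slide 2. Against F53S cells it was -1.64 ± 0.15, or 3.11-fold lower (adjusted p = 0.00283). Both calls held with slide as a block (adjusted p = 1.37e-05 and 5.22e-05). The difference of F53S from WT was -0.28 ± 0.15 (limma adjusted p = 1.0; 0.948 once the slide was a block). The second CHRDL1 probe (A_23_P159893, X:109919187-109919246) was well above background on 5 of 9 arrays and was not tested over all arrays. On slide 1 it was well above background in no line, so no difference is given there. On slide 2 it passed the filter only through WT and F53S cells, and 1 of the 2 K57N spots was dim, so its values are a description. The difference was not called against WT (-1.28, limma adjusted p = 0.0962) or against F53S cells (-1.12, adjusted p = 0.145).

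Across the 9 tested members, K57N arrays lay above all WT arrays for 3 genes (GDF15, BMP2 and INHBA) and below them for 2 (BMP4 and CHRDL1), beside 10.2% and 12.7% of all genes tested. Against F53S arrays the numbers were 3 (8.3%) and 1 (10.3%), CHRDL1 being the gene below. F53S arrays lay below all WT arrays for 1 member, CHRDL1 (1.62%), and above them for 0 (1.54%). The comparisons of both mutants with WT share the WT arrays, as do the comparisons with K57N cells, so they are not independent.

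None of the 3 target genes was called. ID1, on chromosome 20, read 4.64, 4.58 and 4.41 in WT cells, 4.88, 4.67 and 4.60 in F53S cells and 4.91, 4.54 and 4.62 in K57N cells. ID3, on chromosome 1, read 3.74, 3.59 and 3.65 in WT cells, 3.92, 3.64 and 3.70 in F53S cells and 3.91, 3.66 and 3.69 in K57N cells. The lines overlapped for both genes. The difference of K57N from WT was 0.14 ± 0.17 for ID1, with a 95% interval from -0.24 to 0.53, and 0.09 ± 0.16 for ID3, with an interval from -0.26 to 0.45. For F53S against WT it was 0.17 (-0.21 to 0.56) for ID1 and 0.09 (-0.27 to 0.44) for ID3. These intervals lie within a 2-fold change in either direction, and do not show that the levels were equal.

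SMAD7, on chromosome 18, moved in opposite directions on the 2 slides. It read 1.1, 1.44 and 1.57 in WT cells and 1.13, 1.42 and 1.56 in F53S cells, nearly the same values replicate by replicate. In K57N cells it read 1.51, 1.19 and 1.22. K57N minus WT was 0.41 on slide 1 and -0.30 on slide 2, and -0.06 ± 0.20 over all arrays, with a 95% interval from -0.51 to 0.39.

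The other genes of the family were taken from fixed lists of 86 genes, of which 59 could be tested. Without a block, 4 were called higher and 1 lower in K57N than WT (1.51% and 0.739% of all genes tested), and 4 higher and 1 lower in K57N than F53S (0.953% and 0.245%). With slide as a block the numbers were 6 and 1 against WT (2.55% and 1.96%), and 5 and 2 against F53S (1.87% and 1.1%). F53S against WT gave 0 calls in each direction by limma without a block, where 2 of the 59 had an unadjusted p below 0.05 (0.89% of all genes tested), and 0 with slide as a block, where 7 had one (4.04%).

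Among 27 other ligand genes, 13 were tested and 2 were called higher in K57N than WT (1.51% of all genes tested). On slide 2 alone 15 were tested, with 2 called higher and 2 lower than WT (494 and 334 of 20837 genes). Against F53S that fit called 1 higher and 1 lower (352 and 177 of 20837). TGFB1, which encodes TGF-β1, read 0.60, 0.09 and 0.12 in WT cells, 1.16, 0.56 and 0.68 in F53S cells and 3.12, 2.86 and 2.82 in K57N cells, a difference of 2.67 ± 0.22 from WT (limma adjusted p = 0.000751) and of 2.14 ± 0.22 from F53S cells (adjusted p = 0.00444). BMP6, another BMP ligand, read 0.66 ± 0.39 in WT cells and 1.82 ± 0.12 in K57N cells (SD, n = 3), a difference of 1.16 (adjusted p = 0.0456). The median difference over the 13 ligands was 0.01, beside -0.06 over all genes tested.

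Of 19 receptor and co-receptor genes, 14 were tested and 0 were called in K57N against WT by limma without a block or with slide as a block, where 4 and 6 had an unadjusted p below 0.05 (13.2% and 33.8% of all genes tested). Their differences ran from -0.99 to 0.69, with a median of 0.05. AMHR2, the receptor for anti-Müllerian hormone, was called lower in K57N than F53S cells with slide as a block, by -1.09 ± 0.20 (adjusted p = 0.0152). It was not called without a block (adjusted p = 0.304) or on slide 2 alone, where the difference of -0.79 was under 2-fold. Of 13 genes for SMAD proteins and their regulators, 12 were tested and 0 were called in K57N against WT by limma without a block or with slide as a block, where 3 and 7 had an unadjusted p below 0.05 (13.2% and 33.8%); the median was 0.07.

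Among 16 other antagonists and extracellular regulators, 10 were tested. Without a block 0 were called higher in K57N than WT (1.51% of all genes tested) and 1 higher than F53S (0.953%). With slide as a block 2 were called higher than WT (2.55%) and 2 higher than F53S (1.87%). FST, which encodes the activin-binding protein follistatin, was 1.40 ± 0.19 higher in K57N than F53S cells (limma adjusted p = 0.0143), and its difference from WT of 0.99 (adjusted p = 0.0387) was just under 2-fold. With slide as a block, the BMP antagonist gene GREM1 was called higher in K57N than WT by 1.11 ± 0.10 (adjusted p = 0.000499) and than F53S by 1.23, and SOST, which encodes sclerostin, a secreted antagonist of WNT signaling, was called higher than WT by 1.25 ± 0.15 (adjusted p = 0.00167). Without a block neither GREM1 (limma adjusted p = 0.181 against WT and 0.207 against F53S) nor SOST (0.0833 against WT) was called. FST, GREM1 and SOST had higher values in K57N than WT cells, whereas CHRDL1 was lower and the median over the 10 genes was -0.20.

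Among 11 other target genes, 10 were tested, 2 were called higher and 1 lower in K57N against both other lines (1.51% and 0.739% of all genes tested against WT, and 0.953% and 0.245% against F53S). JUNB, an AP-1 gene that is also an immediate early gene of the ERK pathway, read -2.37, -2.90 and -2.83 in WT cells, -1.09, -2.20 and -2.17 in F53S cells and 2.51, 1.27 and 1.27 in K57N cells. Its difference from WT was 4.39 ± 0.42 (limma adjusted p = 0.00155). TGFBI, which encodes a TGF-β-induced matrix protein, was 2.37 ± 0.23 higher in K57N than WT cells (adjusted p = 0.0017). ATOH8, a helix-loop-helix gene induced by BMP signaling, was lower, by -1.45 ± 0.17 (adjusted p = 0.00413). The median of the 10 target genes was 0.36. The calls without a block of JUNB, TGFBI, ATOH8, TGFB1, BMP6 and FST held with slide as a block and on slide 2 alone.

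GDF15 is also known to be induced by the integrated stress response and by p53, so lists for both were set beside it. Of 8 integrated stress response genes, 0 were called in K57N against WT by limma without a block. In that fit 2 had an unadjusted p below 0.05 (13.2% of all genes tested). With slide as a block 5 had one (33.8%), and 2 were called higher (2.55%). These were PPP1R15A by 1.36 ± 0.24 (limma adjusted p = 0.00909) and TRIB3 by 1.35 ± 0.29 (adjusted p = 0.0172). PPP1R15A read 0.68, 0.13 and 0.02 in WT cells and 2.79, 1.12 and 1.0 in K57N cells. TRIB3 read 3.68, 3.18 and 3.02 in WT cells and 6.04, 3.91 and 3.97 in K57N cells. Both differences were larger on slide 1, and on slide 2 alone neither reached 2-fold (0.99 for PPP1R15A and 0.84 for TRIB3), so that neither was called there. The median over these 8 genes was 0.92 over all arrays and 0.33 on slide 2 alone. Of 7 p53 target genes, 0 were called by limma without a block or with slide as a block, where 1 and 2 had an unadjusted p below 0.05 (13.2% and 33.8%), and the median was -0.16. Whether either response took part in the GDF15 difference was not tested.

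**Figure D3:**
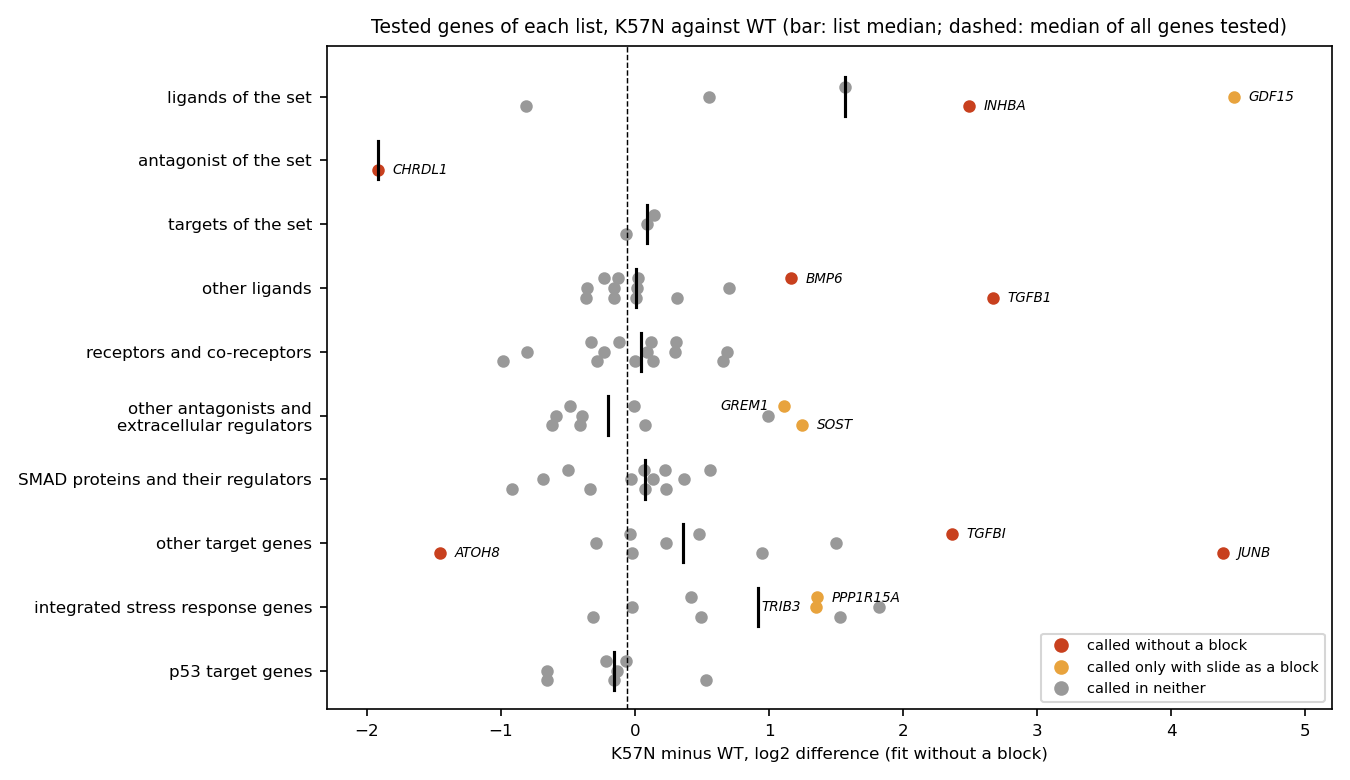
Log2 difference of K57N from WT without a block (x axis) for each tested gene of the fixed lists (y axis), in red where called without a block, in orange where called only with slide as a block and in grey otherwise; bars are list medians and the dashed line is the median of all genes tested. JUNB (4.39) and GDF15 (4.47) lie farthest to the right, and CHRDL1 (-1.92) and ATOH8 (-1.45) farthest to the left.

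Genes outside the lists whose values followed a member most closely were found by Pearson correlation over the arrays, after the mean of each slide was subtracted, among 16950 genes. For GDF15, over 8 arrays, they were LINC00673 (r = 0.999), IER2 (r = 0.999) and MAFF (r = 0.997). For CHRDL1, over 9 arrays, CGNL1 and SAMD11 came first (both r = 0.997), followed by a probe without a gene symbol. For BMP2 they were EIF3J (r = 0.997) and EIF3A (r = 0.996), followed by a transcript without a gene symbol. These points share 3 lines and 2 slides, so each r mainly reflects a few differences between lines and is given as a description.

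The RefSeq promoters of the members called in K57N cells are shown because these were the members called with slide as a block. Each runs from 250 bases before to 50 bases after the gene's start on GRCh38.p14, 5′ to 3′ on the gene's strand, at chr19:18385908-18386207 (GDF15, plus strand), chr7:41703041-41703340 (INHBA, minus strand) and chrX:110795768-110796067 (CHRDL1, minus strand). Capitals mark TATAAA or, in CHRDL1, the EGR-type motif GCGNGGGCG read on the opposite strand.
GDF15 promoter: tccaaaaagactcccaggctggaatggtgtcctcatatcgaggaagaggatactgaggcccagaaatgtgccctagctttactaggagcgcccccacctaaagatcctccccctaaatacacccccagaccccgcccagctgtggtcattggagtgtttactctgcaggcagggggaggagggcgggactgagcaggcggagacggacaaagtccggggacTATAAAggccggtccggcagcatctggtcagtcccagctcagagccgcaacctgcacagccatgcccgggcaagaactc
INHBA promoter: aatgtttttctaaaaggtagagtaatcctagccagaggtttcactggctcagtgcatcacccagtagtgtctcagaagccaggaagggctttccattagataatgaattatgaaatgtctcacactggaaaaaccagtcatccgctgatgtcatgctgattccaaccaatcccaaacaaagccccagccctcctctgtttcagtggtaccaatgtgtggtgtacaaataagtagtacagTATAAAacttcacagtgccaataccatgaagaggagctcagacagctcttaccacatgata
CHRDL1 promoter: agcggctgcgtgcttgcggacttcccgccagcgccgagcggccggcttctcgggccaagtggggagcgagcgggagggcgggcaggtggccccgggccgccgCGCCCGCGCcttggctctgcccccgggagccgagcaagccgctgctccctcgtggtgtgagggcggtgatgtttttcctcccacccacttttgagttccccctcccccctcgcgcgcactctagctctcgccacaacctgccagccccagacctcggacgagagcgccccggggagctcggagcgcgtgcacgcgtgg

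Both strands of the 11 promoter windows of 7 members were searched for letters known from ERK-responsive, SMAD-responsive and stress-responsive promoters. BMP2, BMP7 and INHBE had no promoter window and were not searched. TATAAA was found in 4 of the 11 windows, and 11.5% of all 35116 promoters hold it. It lay 29 bases before the GDF15 start, 11 bases before that of INHBA, 35 before that of SMAD7, and 33 and 31 before that of ID1, so members that were called in no comparison hold it too. GCGNGGGCG was found in CHRDL1, 148 bases before the start, and in 9.43% of all promoters. GGCGCC, known from BMP-responsive promoters, was found in BMP4 and in no other member window, and 19.2% of all promoters hold it. The AP-1 letters TGANTCA (7.71% of all promoters), the CRE letters TGACGTCA (1.85%), the ETS letters CCGGAAG (10.3%), the palindromic SMAD-binding letters GTCTAGAC (0.202%) and the ATF4 letters TGATGNAA (3.62%) were found in none of the 11 windows. No match says only that these letters are not in these windows.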

How the data were processed

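Gene expression was measured in 9 samples, 3 arrays for each of 3 HEK293 lines, on 1-colour Agilent SurePrint G3 Human GE 8x60K v2 arrays with Cy3-labelled cRNA made from miRNeasy-purified total RNA. Spot intensities were deposited as written by Agilent Feature Extraction 10.10.1.1 (submitters' processing notes), whose processed signal is background-subtracted, and the authors also deposited a table of log2 values, which equalled log2 of that signal minus a constant per array within 0.02 for 98.9% of probes. From these, log2(processed signal) minus the log2 75th percentile of each array's non-control spots was computed. Spots flagged as outliers (278 to 501 of 58716 per array) were left out, and repeated spots of a probe were averaged. Tests were limited to probes that passed the well-above-background flag throughout the 3 arrays of 1 or more lines, and a gene was represented by its tested probe with the highest mean signal. Names came from RefSeq accessions for 28173 of 50598 probes and otherwise from the scanner files.

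Lines were compared with limma 3.58.1 in R 4.3.3 (lmFit, eBayes; 1 mean per line over all 9 arrays; no block, as the study's methods name none). The fits were tested on simulated data. The labels number the replicates 1 to 3. Deviations from the line means correlated at 0.43 to 0.92 between same-numbered arrays and at -0.87 to 0.76 otherwise (22063 probes). Every negative value set a slide 1 array against a slide 2 array. Within slide 2, same-numbered arrays correlated at 0.43 to 0.85 and others at 0.54 to 0.76. These values show the slide and do not show pairing by number apart from it. Slide was read from the array barcodes and means shared slide and nothing more. Slide and replicate number as a block, slide 2 alone, normexp with offset 50, quantile normalization, other filters, the methods' t-test, leaving out each array and the authors' log2 table were tried. The arrays are described as 3 experiments a line, and p-values measure the spread between them; their number limits the precision. The members, lists and named genes were chosen with earlier results of these data known. Named were all members, up to 4 called genes per list by the size of the K57N against WT difference, and the 3 genes most like GDF15, BMP2 and CHRDL1. Promoters came from RefSeq (GRCh38.p14). Figures were drawn with matplotlib 3.10.9.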

Additional observations from a re-analysis of the deposited data

Results flagged for a closer look

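The change in K57N against WT cells differed between the 2 slides for 4 of the 11 member probes tested, by a limma interaction of line and slide added after seeing the data (slide 2 difference minus slide 1 difference, log2; adjusted over all probes tested), in which slide 1 holds 1 array a line, so that the spread comes from slide 2 alone and those single arrays are assumed to vary like it. The interaction was -2.62 ± 0.17 (SE) for BMP2, -1.35 ± 0.23 for INHBA, -0.71 ± 0.14 for SMAD7 and 0.52 ± 0.11 for the BMP7 probe at 20:55743791-55743844. The same interaction passed an adjusted p of 0.05 for 13.9% of the 25387 probes tested in K57N against WT, and for 0.114% of 25392 in F53S against WT. The INHBA value is given as a description, because its probe passed the filter only through K57N cells, where it was high. It also rests on a WT spot on slide 1 that was not well above background. With that spot set at the lowest signal well above background, the difference was 3.14 on slide 1, beside 2.04 on slide 2. BMP2 and INHBA kept their direction on both slides, while SMAD7 did not. For GDF15 (0.15, adjusted p = 0.44) and CHRDL1 (-0.06, adjusted p = 0.721) the interaction did not pass.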

How the results depend on the processing

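CHRDL1 was called lower in K57N than WT and F53S cells under every alternative by its brighter probe. Its second probe did not pass the filter over 9 arrays and was not called on slide 2 alone. The number of members called higher in K57N than WT was 1, beside 290 of all 19209 genes tested. It became 2, by the addition of GDF15, with quantile normalization (317) and with replicate number (481) or slide (490) as a block. It was also 2 on slide 2 alone (494 of 20837), again with GDF15. It became 0 with normexp (145), with the methods' t-test (82) and among probes well above background on all 9 arrays (156 of 17062), where INHBA was not tested. For K57N against F53S it was 1, beside 183 of 19209 genes. It became 2 with replicate number (347) or slide (360) as a block and on slide 2 alone (352 of 20837). It became 0 with no filter on dim probes (62 of 36618), with normexp (74) and with only the 2 lines compared (112 of 18992). It was also 0 with the methods' t-test (24) and among probes above background on all 9 arrays (94 of 17062). Leaving out 1 array without a block gave 1 to 2 members higher than WT, beside 156 to 322 of 19286 to 20409 genes tested. Against F53S it gave 0 to 1, beside 66 to 178. With slide as a block it gave 2 in both, beside 431 to 518 and 302 to 370 of all genes. Other pathway genes called lower in K57N than F53S were 1 of 59 without a block (47 of 19209 genes). They were 2 of 59 with slide as a block (211) and 2 of 64 on slide 2 alone (177 of 20837). Those lower than WT were 1 of 59 without a block (142 of 19209) and 3 of 64 on slide 2 alone (334 of 20837). The block for replicate number changed no call of a member but that of GDF15. Of 803 member differences recomputed, 40 changed sign, none of them called. On slide 2 alone BMP2 was -0.002 in F53S against WT. In K57N against F53S, ID1 was 0.0077 with the deposited table, 0.066 with normexp and 0.019 with quantile normalization, and ID3 was -0.012 with normexp. Leaving out 1 array, with or without slide as a block, changed signs within these ranges: in F53S against WT, BMP2 from -0.46 to 0.50, BMP4 from -0.26 to 0.10, BMP7 from -0.26 to 0.43 and SMAD7 from -0.14 to 0.12; SMAD7 from -0.29 to 0.036 in K57N against WT and from -0.29 to 0.034 in K57N against F53S; and in the latter ID1 from -0.14 to 0.053 and ID3 from -0.076 to 0.086. The cause of these moves was not tested. Dim signal limits INHBA in WT and F53S cells, INHBE and the second CHRDL1 probe.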
